A study of Rattus norvegicus with 12 samples.

Results

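The genes described here encode the secreted ligands Bdnf and Igf1, their receptors Ntrk2 (the gene of TrkB) and Igf1r, and the transcription factor Creb1. Their identifiers are ENSRNOG00000047466 (Bdnf), ENSRNOG00000018839 (Ntrk2), ENSRNOG00000013412 (Creb1), ENSRNOG00000004517 (Igf1) and ENSRNOG00000014187 (Igf1r). They were chosen by identifier, with the symbols supplied alongside, and all 5 were found among the 43206 genes of the series. The deposited values come as transcript rows, and these genes held 20 of the 78025 rows, 9 of them in Bdnf, 5 in Igf1, 3 in Ntrk2, 2 in Creb1 and 1 in Igf1r. Bulk RNA came from the prefrontal cortex of 28-day-old rats of the SD strain, in 12 libraries of 3 groups of 4. The acupuncture group is labelled by that treatment alone, and the title of the series places it in rats with hypoxic-ischemic brain damage. The HIBD model group is labelled with hypoxic-ischemic brain damage and no treatment, and the normal group with neither. All groups share strain, tissue and age. The labels give no time or surgery for the damage, no acupuncture points or schedule, and no sex, and they do not say that each numbered library is 1 animal, so every p-value refers to library-to-library spread, which may be technical. The files do not pair identifiers with symbols, so cell type markers and other genes of these pathways were not analysed here.

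BDNF is a neurotrophin, made mainly by neurons and released at active synapses. It binds the receptor tyrosine kinase TrkB, which signals through the MAP kinase, PI3-kinase and phospholipase C pathways, and the Ntrk2 gene also makes shortened receptors without the kinase domain, abundant in astrocytes. Activity leads to phosphorylation of CREB, the product of Creb1, which in turn activates the Bdnf gene. IGF1 signals through the receptor tyrosine kinase encoded by Igf1r to the same kinase pathways, and in the brain it is made by some neurons, by microglia and by cells of vessels and meninges.

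Upstream sequence is shown for Bdnf and Creb1 because CREB binds the Bdnf gene at a cAMP response element. The windows are the 250 bases before a RefSeq transcript start (build GRCr8, plus strand); the submitters' processing notes name another build, Rnor_6.0. Capitals mark TGACG or its reverse complement CGTCA, the half-site of the element, and the letters TCACGTCA, which hold that half-site. Of the 6 Bdnf windows, the 1 at chr3:116637608-116637857 held TCACGTCA, and the first of the 2 Creb1 windows, at chr9:73397259-73397508, held 2 half-sites.
Bdnf: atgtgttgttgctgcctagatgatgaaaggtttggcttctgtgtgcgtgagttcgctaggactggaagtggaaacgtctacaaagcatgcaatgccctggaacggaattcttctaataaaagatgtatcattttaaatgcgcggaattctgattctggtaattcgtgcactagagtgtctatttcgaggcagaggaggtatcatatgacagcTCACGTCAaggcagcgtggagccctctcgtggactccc
Creb1: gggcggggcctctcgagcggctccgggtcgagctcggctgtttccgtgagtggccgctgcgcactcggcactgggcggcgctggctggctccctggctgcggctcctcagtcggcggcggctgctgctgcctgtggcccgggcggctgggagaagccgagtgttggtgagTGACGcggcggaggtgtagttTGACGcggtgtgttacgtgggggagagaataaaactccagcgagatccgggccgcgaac
Over all 33469 promoter windows of this length, on either strand, 18.2% held TGACG, 0.35% held TCACGTCA and 1.59% held the full element TGACGTCA, which none of the windows of Bdnf, Creb1, Igf1 or Igf1r contained. No window of Igf1 or Igf1r held any of these letters. A match is a description of the letters only.

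None of the 5 genes differed between any pair of groups by the test across all genes (edgeR quasi-likelihood test, adjusted p under 0.05). In that fit few genes passed. Between acupuncture and HIBD model 0% of 27885 genes passed, between HIBD model and normal 0.0968%, and between acupuncture and normal 0.0825%. At an unadjusted p under 0.05, 2 of the 5 genes differed between acupuncture and HIBD model, where 5.31% of all genes did. Bdnf was the 1 on the higher side, with 1.94% of all genes, and Igf1 the 1 on the lower side, with 3.37%. At that p, 0 of the 5 differed between HIBD model and normal, where 22.4% of all genes did (13.6% higher and 8.83% lower). Likewise 0 of the 5 differed between acupuncture and normal, where 24.5% did (14.1% higher and 10.4% lower). The share of all genes that passed depended on the tool and on normal replicate 10, while 0 of the 5 passed in each case. DESeq2 called 0.663% of 27737 genes between acupuncture and HIBD model, 13.5% between HIBD model and normal and 15.5% between acupuncture and normal, and limma-voom called 0%, 0.0179% and 0.0323%. Without normal replicate 10, edgeR called 3032 genes between HIBD model and normal, against 27 with it, and 3094 between acupuncture and normal, against 23 with it. The median log2 fold change of the 5 was -0.01 for acupuncture against HIBD model, -0.05 for HIBD model against normal and -0.03 for acupuncture against normal, against medians over all genes of 0.00, 0.01 and 0.02. The comparisons share libraries with each other, so they are not independent.

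Levels per length put Ntrk2 far above the others. Summed over its rows, Ntrk2 averaged 144 ± 12.04 FPKM over the 12 libraries (SD), more than 99.2% of the 35753 genes listed above 0. Igf1r averaged 14.3 ± 2.59 FPKM, Creb1 13.5 ± 2.43 FPKM, Bdnf 9.65 ± 2.59 FPKM and Igf1 5.96 ± 2.81 FPKM. Ntrk2 was above Igf1r in all 12 libraries, by 8.13 to 12.4 times. The other neighbours in this order overlapped: Igf1r was above Creb1 in 7 of 12 libraries, Creb1 above Bdnf in 10 and Bdnf above Igf1 in 10. FPKM is a level relative to transcript length and library total, as deposited by the authors. In bulk tissue, fewer cells of a type and less RNA per cell cannot be told apart.

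The total estimated count per library lay between 714904584 and 1090316733, in units that are not reads, so no counting interval is given. Pearson's r between libraries, across genes on the log2(CPM + 1) scale, lay between 0.961 and 0.991. HIBD model replicates 2 and 18 had the largest normalization factors (TMM), 1.13 and 1.07, against 0.944 to 1.05 in the other 10 libraries. The same 2 libraries had the highest Igf1 and the lowest Bdnf levels in CPM. The part of these libraries' composition in the results was not tested. Each test was repeated without each of them, but not without both together.

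Bdnf, the ligand of TrkB, had its lowest group mean in HIBD model libraries. In acupuncture replicates 5, 22, 35 and 55 it had 21.6, 30.1, 27.0 and 28.0 CPM, which is the estimated count per TMM-scaled library size. In HIBD model replicates 2, 8, 16 and 18 it had 14.5, 17.1, 23.96 and 14.3 CPM. In normal replicates 8, 10, 11 and 13 it had 27.0, 21.2, 30.8 and 14.9 CPM. Every acupuncture library but replicate 5 was above every HIBD model library, and replicate 5 was below HIBD model replicate 16 alone, so the groups overlapped by 1 library on each side. The normal libraries spread over nearly the whole range, with replicate 13 close to the low HIBD model libraries. Acupuncture averaged 26.7 ± 3.61 CPM, the HIBD model group 17.4 ± 4.53 CPM and the normal group 23.5 ± 6.97 CPM (SD, n = 4 each). The log2 fold change was 0.61 for acupuncture against HIBD model (SE 0.23, 95% interval 0.10 to 1.13, unadjusted p = 0.0240, edgeR adjusted p = 0.907). For HIBD model against normal it was -0.43 (SE 0.23, 95% interval -0.94 to 0.09, edgeR adjusted p = 0.315), and for acupuncture against normal 0.18 (SE 0.23, 95% interval -0.33 to 0.70, edgeR adjusted p = 0.670). Single normal libraries moved both values: without replicate 11 they were -0.27 and 0.34, and without replicate 13 they were -0.59 and 0.02. The intervals are not adjusted for the number of genes tested. The plot of levels by library shows the 3 groups for each gene.

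**Figure D1:**
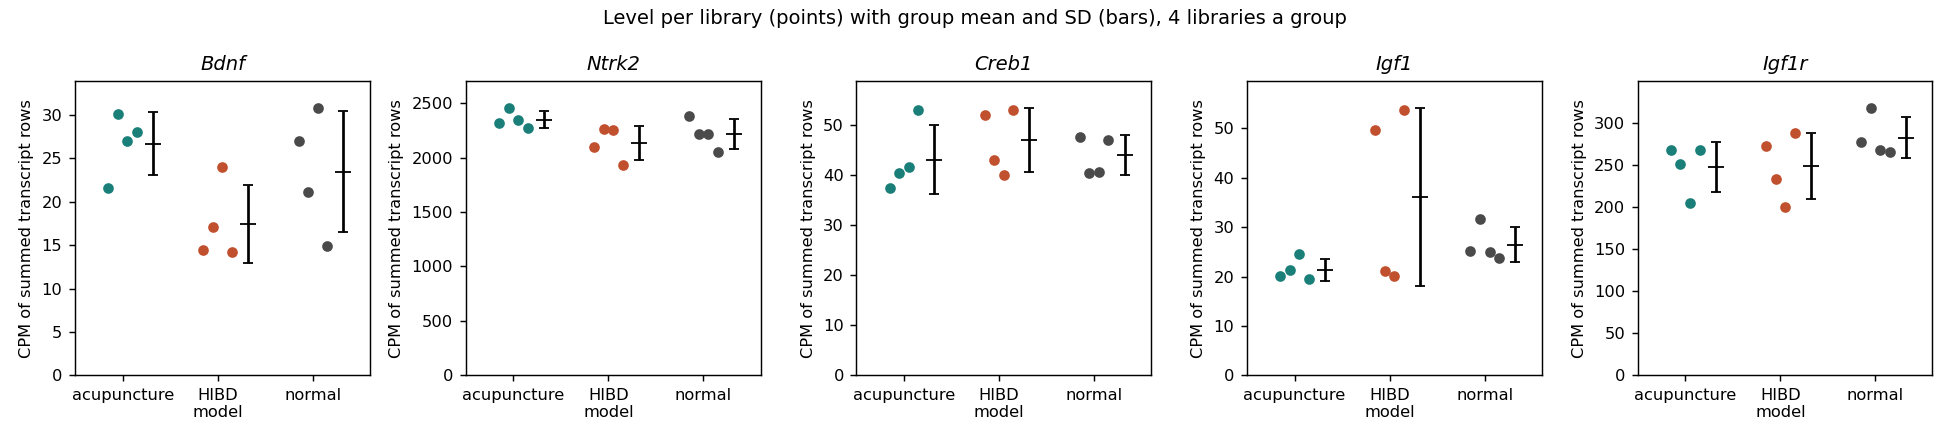
Level of each gene in CPM (vertical axes, linear from 0) in acupuncture, HIBD model and normal libraries; each point is 1 library, and the bar beside the points is the group mean with its SD. Bdnf was at 21.6 to 30.1 CPM in acupuncture and 14.3 to 23.96 CPM in HIBD model libraries, Igf1 was at 49.6 and 53.7 CPM in 2 HIBD model libraries and at most 31.7 CPM elsewhere, Ntrk2 was at 2272 to 2457 CPM in acupuncture and 1930 to 2259 CPM in HIBD model libraries, and Creb1 and Igf1r overlapped among the groups.

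Igf1, the ligand of the IGF1 receptor, split the HIBD model group. In acupuncture replicates 5, 22, 35 and 55 it had 20.1, 21.4, 24.5 and 19.6 CPM. In HIBD model replicates 2, 8, 16 and 18 it had 49.6, 21.2, 20.1 and 53.7 CPM. In normal replicates 8, 10, 11 and 13 it had 25.3, 31.7, 25.0 and 23.9 CPM. HIBD model replicates 2 and 18 thus stood above all 10 other libraries, which lay between 19.6 and 31.7 CPM, while HIBD model replicates 8 and 16 were within the acupuncture range. Acupuncture averaged 21.4 ± 2.21 CPM, the HIBD model group 36.2 ± 18.0 CPM and the normal group 26.5 ± 3.52 CPM (SD, n = 4 each). The log2 fold change was -0.76 for acupuncture against HIBD model (SE 0.30, 95% interval -1.42 to -0.09, unadjusted p = 0.0288, edgeR adjusted p = 0.908). Without HIBD model replicate 2 it was -0.58 and without replicate 18 it was -0.52 (edgeR adjusted p = 1 in each). For HIBD model against normal the log2 fold change was 0.45 (SE 0.30, 95% interval -0.21 to 1.11, edgeR adjusted p = 0.422), and it was 0.27 without HIBD model replicate 2 and 0.21 without replicate 18. For acupuncture against normal it was -0.31 (SE 0.30, 95% interval -0.97 to 0.35, edgeR adjusted p = 0.566).

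The 5 Igf1 rows were carried by a pair of almost equal level. ENSRNOT00000038780 averaged 2.17 ± 0.159 FPKM in acupuncture, 3.15 ± 1.67 FPKM in HIBD model and 2.88 ± 0.523 FPKM in normal libraries (SD, n = 4 each). TCONS_00313483, a transcript named by an assembler, averaged 2.11 ± 0.287 FPKM in acupuncture, 4.53 ± 3.26 FPKM in HIBD model and 2.90 ± 0.326 FPKM in normal libraries. The ratio of the assembled to the annotated row was between 0.909 and 1.24 in 11 libraries. In HIBD model replicate 18 it was 2.75, with 8.63 FPKM of TCONS_00313483 against 3.14 FPKM of ENSRNOT00000038780. HIBD model replicate 2, the other high library, had 5.68 FPKM of TCONS_00313483 and 5.52 FPKM of ENSRNOT00000038780, so both rows were high there. ENSRNOT00000081822 and ENSRNOT00000005995 were listed at 0 in 10 and 9 of the 12 libraries and ENSRNOT00000085680 did not exceed 0.0103 FPKM in any. TCONS_00313483 had a log2 fold change of -1.04 for acupuncture against HIBD model (SE 0.41, unadjusted p = 0.0288, edgeR adjusted p = 1), which did not pass over 53666 transcript rows. Without HIBD model replicate 18 it was -0.54 (edgeR adjusted p = 1).

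**Figure D2:**
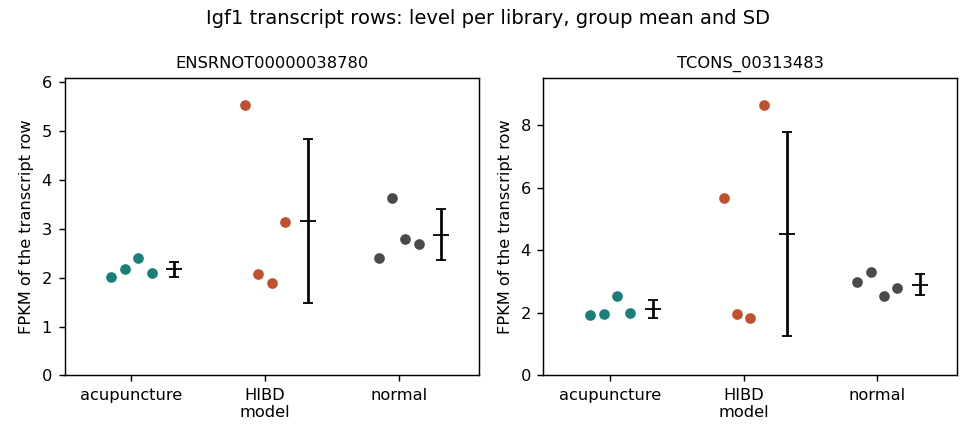
FPKM of the 2 main Igf1 transcript rows (vertical axes, linear from 0) in acupuncture, HIBD model and normal libraries; points are libraries and bars group means with SD. The annotated row (left) was highest in HIBD model replicate 2 at 5.52 FPKM and the assembled row (right) in HIBD model replicate 18 at 8.63 FPKM.

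Ntrk2, the gene of the BDNF receptor TrkB, was the most even of the 5 genes between libraries. In acupuncture replicates 5, 22, 35 and 55 it had 2313, 2457, 2348 and 2272 CPM. In HIBD model replicates 2, 8, 16 and 18 it had 2093, 2259, 2257 and 1930 CPM. In normal replicates 8, 10, 11 and 13 it had 2385, 2218, 2218 and 2048 CPM. In CPM all 4 acupuncture libraries were above all 4 HIBD model libraries, by a gap of 2272 to 2259 CPM. Both groups overlapped the normal range. In summed FPKM, acupuncture (134 to 145) and HIBD model libraries (119 to 154) overlapped, with HIBD model replicate 2 above every acupuncture library. Of all genes, 2.27% had CPM ranges that did not overlap between acupuncture and HIBD model. The SD over the 12 libraries was 6.64% of the mean, against 12.6% for Creb1, 12.8% for Igf1r, 27.5% for Bdnf and 41.4% for Igf1. The log2 fold change was 0.14 for acupuncture against HIBD model (SE 0.08, 95% interval -0.04 to 0.32, edgeR adjusted p = 0.9998), -0.05 for HIBD model against normal (SE 0.08, 95% interval -0.23 to 0.13, edgeR adjusted p = 0.753) and 0.08 for acupuncture against normal (SE 0.08, 95% interval -0.10 to 0.26, edgeR adjusted p = 0.572). As linear folds the 3 intervals reached from 0.971 to 1.25, from 0.850 to 1.09 and from 0.935 to 1.20.

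**Figure D3:**
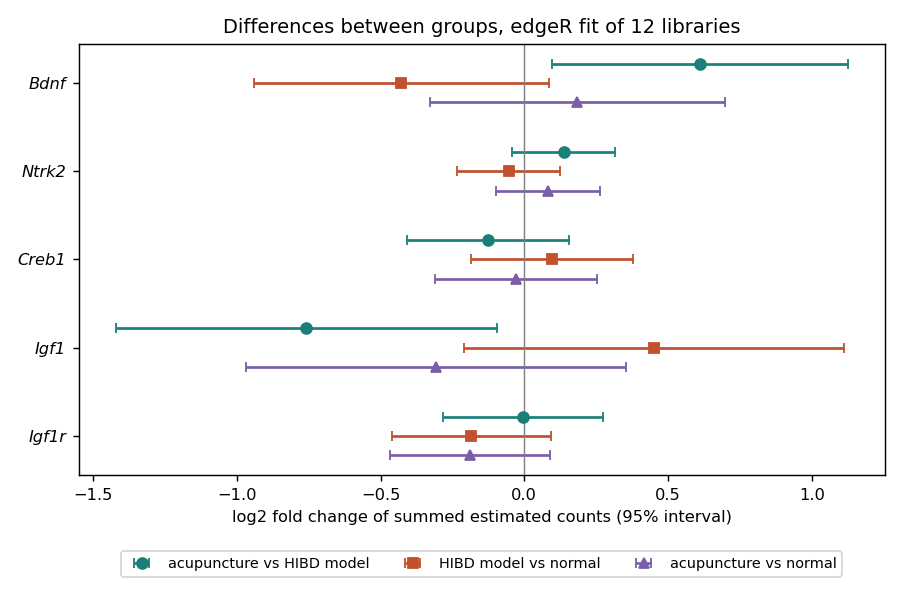
Log2 fold change of each gene (horizontal axis, positive where the group named first is higher) for acupuncture against HIBD model, HIBD model against normal and acupuncture against normal; points are edgeR estimates and bars 95% intervals, not adjusted for the number of genes. The Ntrk2 intervals are the narrowest, and only Bdnf and Igf1 between acupuncture and HIBD model have intervals off 0, with edgeR adjusted p of 0.907 and 0.908.

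The direction of the Ntrk2 difference between acupuncture and normal libraries depended on the scale. Summed FPKM was 143, 143, 134 and 145 in acupuncture replicates 5, 22, 35 and 55, and 161, 156, 149 and 152 in normal replicates 8, 10, 11 and 13. On that scale every acupuncture library was below every normal library, where 22.0% of all genes had ranges apart in 1 direction or the other. There limma on log2(FPKM + 1) gave a log2 difference of -0.13 (limma adjusted p = 0.325). On the scale of estimated counts the log2 fold change was 0.08, as above. Among the 3 Ntrk2 rows, ENSRNOT00000090914 was much the shortest, while ENSRNOT00000042145 and ENSRNOT00000082611 were nearly equal in length. Dividing the estimated count by the FPKM and the library factor gave ENSRNOT00000042145 and ENSRNOT00000090914 99.7% and 41.8% of the value of ENSRNOT00000082611. FPKM also carries no TMM scaling, and Igf1r, with 1 row, had a log2 difference of -0.31 on log2(FPKM + 1) against -0.19 on estimated counts in the same comparison. The cause of the turn in Ntrk2 was not tested.

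Among the Ntrk2 rows, ENSRNOT00000042145 had the highest level in 11 of the 12 libraries and ENSRNOT00000090914, the short one, varied most; in HIBD model replicate 2 the short row was the higher of the pair. The files do not say which row encodes the receptor with the kinase domain. ENSRNOT00000042145 had 73.3, 80.6, 85.0 and 76.9 FPKM in acupuncture replicates 5, 22, 35 and 55, 70.5, 71.6, 75.8 and 68.1 FPKM in HIBD model replicates 2, 8, 16 and 18, and 81.2, 74.7, 76.1 and 71.0 FPKM in normal replicates 8, 10, 11 and 13. ENSRNOT00000090914 had 59.7, 51.0, 36.3 and 54.8 FPKM in the same acupuncture libraries, 72.0, 50.1, 31.996 and 59.2 FPKM in the HIBD model libraries, and 66.0, 69.3, 59.6 and 69.9 FPKM in the normal libraries. Acupuncture replicate 35 and HIBD model replicate 16 were the lowest of all for this short row, with the other 10 libraries between 50.1 and 72.0 FPKM. The same 2 libraries had the lowest Igf1r levels. ENSRNOT00000082611 was the lowest row in every library, at 9.54 to 13.8 FPKM. None of the 3 rows differed between groups over all transcript rows in edgeR, where 0.00745%, 0.0335% and 0.0559% of 53666 rows passed an adjusted p of 0.05 for acupuncture against HIBD model, HIBD model against normal and acupuncture against normal. The log2 fold changes of ENSRNOT00000090914 were -0.04 (SE 0.205, edgeR adjusted p = 1), -0.26 (SE 0.205, edgeR adjusted p = 0.620) and -0.31 (SE 0.205, edgeR adjusted p = 0.504) in that order.

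As a share of summed Ntrk2 FPKM, ENSRNOT00000042145 made up 56.0 ± 5.48% in acupuncture, 53.4 ± 7.87% in HIBD model and 49.0 ± 2.16% in normal libraries (SD, n = 4 each). ENSRNOT00000090914 made up 35.5 ± 6.11%, 38.7 ± 8.60% and 42.8 ± 2.74%, and ENSRNOT00000082611 8.51 ± 1.07%, 7.83 ± 0.876% and 8.17 ± 0.589%, in the same order of groups. For ENSRNOT00000042145, acupuncture replicates 5, 22, 35 and 55 had 51.15%, 56.3%, 63.5% and 52.9%, and normal replicates 8, 10, 11 and 13 had 50.5%, 47.8%, 51.145% and 46.6%. All 4 acupuncture libraries were thus above all 4 normal libraries, but acupuncture replicate 5 and normal replicate 11 were all but equal. How many rows of all genes had shares apart in this comparison was not computed. In CPM, 13.6% of all rows had ranges apart between acupuncture and normal. The difference of 6.97 percentage points had a two-sided exact permutation p of 0.0286, the smallest that 4 against 4 libraries allow, and 0.257 after adjustment over the 9 tests of shares. The other 8 tests of shares gave exact permutation p from 0.0857 to 0.629, with adjusted values of 0.386 to 0.629.

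**Figure D4:**
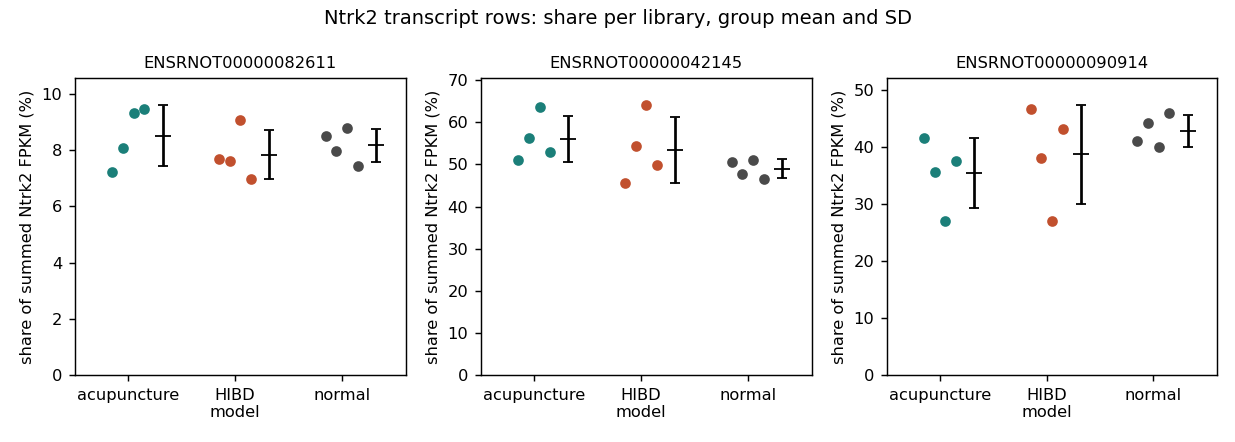
Share of each Ntrk2 transcript row in the summed Ntrk2 FPKM of a library (vertical axes in percent, linear from 0) in acupuncture, HIBD model and normal libraries; points are libraries and bars group means with SD. The share of ENSRNOT00000090914 is 27.1% in acupuncture replicate 35 and 27.0% in HIBD model replicate 16, while the 4 normal libraries keep within 40.1% to 45.9%.

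Igf1r, the receptor tyrosine kinase of IGF1, came as 1 transcript row. In acupuncture replicates 5, 22, 35 and 55 it had 267, 251, 205 and 267 CPM. In HIBD model replicates 2, 8, 16 and 18 it had 272, 233, 200.3 and 288 CPM. In normal replicates 8, 10, 11 and 13 it had 277, 318, 268 and 266 CPM. The 2 low libraries, acupuncture replicate 35 and HIBD model replicate 16, lay below the other 10, which started at 233 CPM, and the groups overlapped. Acupuncture averaged 248 ± 29.6 CPM, the HIBD model group 248 ± 39.4 CPM and the normal group 282 ± 24.2 CPM (SD, n = 4 each). The log2 fold change was -0.01 for acupuncture against HIBD model (SE 0.13, 95% interval -0.28 to 0.27, edgeR adjusted p = 0.9998), -0.18 for HIBD model against normal (SE 0.13, 95% interval -0.46 to 0.09, edgeR adjusted p = 0.437) and -0.19 for acupuncture against normal (SE 0.13, 95% interval -0.47 to 0.09, edgeR adjusted p = 0.385). For acupuncture against normal it was -0.11 without acupuncture replicate 35, and for HIBD model against normal it was -0.09 without HIBD model replicate 16 and -0.10 without normal replicate 10. In the fit of transcript rows, where libraries are scaled on rows, all 4 acupuncture libraries (204 to 275 CPM) were below all 4 normal libraries (275.4 to 325 CPM). Of all rows, 13.6% had ranges that did not overlap in this comparison, in either direction. The Igf1r row did not pass there either (log2 fold change -0.24, SE 0.14, edgeR adjusted p = 0.451).

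Creb1, the transcription factor gene, had overlapping levels in all groups. In acupuncture replicates 5, 22, 35 and 55 it had 37.3, 40.4, 41.6 and 53.0 CPM. In HIBD model replicates 2, 8, 16 and 18 it had 51.9, 43.1, 40.1 and 53.0 CPM. In normal replicates 8, 10, 11 and 13 it had 47.7, 40.4, 40.6 and 47.1 CPM. The highest libraries were acupuncture replicate 55 and HIBD model replicates 2 and 18, all above the normal range. The log2 fold change was -0.13 for acupuncture against HIBD model (SE 0.13, 95% interval -0.41 to 0.16, edgeR adjusted p = 0.9998), 0.10 for HIBD model against normal (SE 0.13, 95% interval -0.18 to 0.38, edgeR adjusted p = 0.715) and -0.03 for acupuncture against normal (SE 0.13, 95% interval -0.31 to 0.25, edgeR adjusted p = 0.913). These are RNA levels, and the phosphorylation of CREB was not measured. Of its 2 rows, ENSRNOT00000049654 made up 67.8 ± 4.62% of summed Creb1 FPKM in acupuncture, 67.5 ± 5.92% in HIBD model and 69.3 ± 2.98% in normal libraries, and ENSRNOT00000018326 the rest.

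Bdnf is known to be transcribed from several promoters that join different first exons to 1 coding exon, and its 9 rows behaved unequally. ENSRNOT00000080190 had the highest level in every library. It had 4.49, 5.25, 3.30 and 4.81 FPKM in acupuncture replicates 5, 22, 35 and 55, 2.52, 2.63, 3.44 and 3.09 FPKM in HIBD model replicates 2, 8, 16 and 18, and 7.53, 4.76, 8.84 and 5.33 FPKM in normal replicates 8, 10, 11 and 13. Every HIBD model library was below every normal library, in FPKM and in CPM, and acupuncture lay between, overlapping both. Of all transcript rows, 10.3% had ranges that did not overlap between HIBD model and normal in FPKM and 9.96% in CPM. The log2 fold change for HIBD model against normal was -1.12 (SE 0.24, 95% interval -1.65 to -0.59, unadjusted p = 7.69e-04), and it did not pass over all rows (edgeR adjusted p = 0.186). Without normal replicate 10 the log2 fold change was -1.25 and the edgeR adjusted p was 0.0183, and without any other single library the adjusted p lay between 0.154 and 0.403. Normal replicate 10 had the lowest level of this row among the normal libraries. Its omission also raised the edgeR calls over all genes in this comparison from 27 to 3032. For acupuncture against HIBD model the log2 fold change was 0.63 (SE 0.24, unadjusted p = 0.0223, edgeR adjusted p = 1), and for acupuncture against normal -0.48 (SE 0.24, edgeR adjusted p = 0.322). This row and TCONS_00313483 of Igf1 were singled out after their values were seen. Its share of summed Bdnf FPKM averaged 41.5 ± 7.78% in acupuncture, 41.0 ± 5.00% in HIBD model and 60.7 ± 7.92% in normal libraries (SD, n = 4 each). With 49.9% to 68.9%, the normal libraries overlapped the acupuncture libraries, at 31.8% to 50.4%, and not the HIBD model libraries, at 37.8% to 48.3%. Of 36847 tested rows of genes with several rows, 6.97% had shares apart between HIBD model and normal, and the share of this row was given no test. The files do not tie this row to any of the 6 upstream windows, the 1 printed above included.

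The remaining Bdnf rows were lower and changed order from library to library. ENSRNOT00000073636, TCONS_00235497, ENSRNOT00000077703, ENSRNOT00000083542 and ENSRNOT00000089233 averaged between 0.341 and 1.35 FPKM over the 12 libraries. ENSRNOT00000077703 ranged from 0.0261 FPKM in normal replicate 13 to 1.89 FPKM in acupuncture replicate 35. ENSRNOT00000078543 had 0.628 FPKM in HIBD model replicate 8, 9.55% of summed Bdnf FPKM there, and at most 0.00907 FPKM in any other library. ENSRNOT00000083289 and ENSRNOT00000090445 did not exceed 0.0353 FPKM in any library. Transcripts of 1 gene can share exons, so the division of reads among these rows is uncertain.

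**Figure D5:**
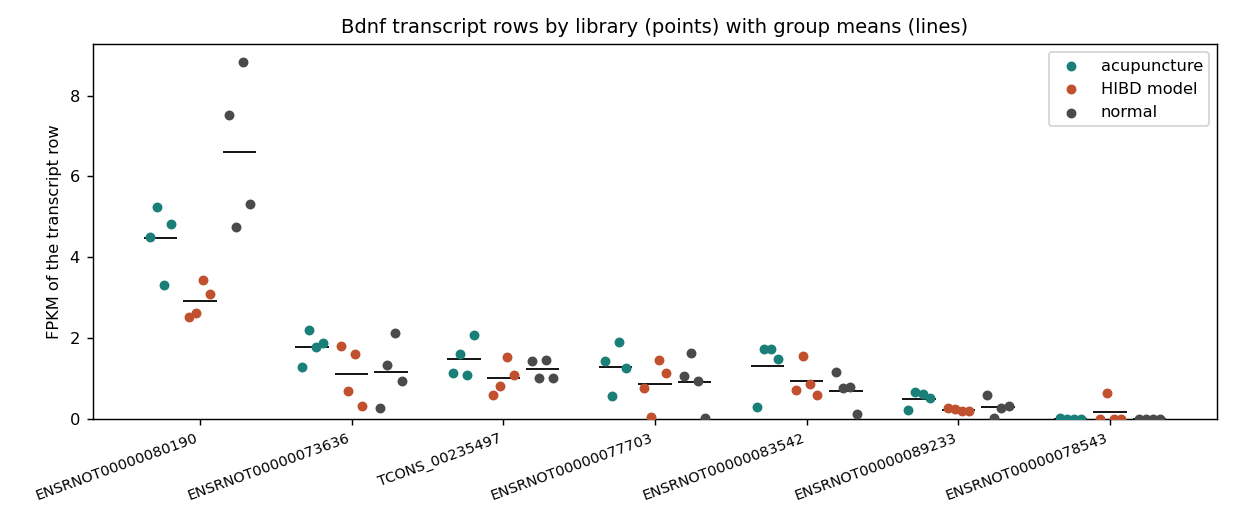
FPKM of the 7 Bdnf transcript rows with a mean above 0.05 FPKM (vertical axis, linear from 0), ordered by mean; points are acupuncture, HIBD model and normal libraries and lines group means. ENSRNOT00000080190 is at 2.52 to 3.44 FPKM in HIBD model libraries, below all 4 normal libraries at 4.76 to 8.84 FPKM, and no other tested Bdnf row had ranges apart in CPM.

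Of the 20 rows, 17 were tested, and 3 did not pass the filter (1 of Bdnf and 2 of Igf1). The filter asks for a minimum count in several libraries, so these were not the rows of lowest mean FPKM. None of the 17 passed an adjusted p of 0.05 in any comparison. At an unadjusted p under 0.05, 2 of 17 differed between acupuncture and HIBD model, where 4.58% of all rows did. ENSRNOT00000080190 was the 1 higher row, with 1.94% of all rows, and TCONS_00313483 the 1 lower row, with 2.64%. Between HIBD model and normal it was 1 of 17, ENSRNOT00000080190 on the lower side, where 16.0% of all rows differed (10.5% higher and 5.46% lower). Between acupuncture and normal it was 0 of 17, where 17.6% differed (10.7% higher and 6.87% lower). In CPM, ranges did not overlap for 0 of 17 rows between acupuncture and HIBD model (2.40% of all rows). The count was 1 of 17 between HIBD model and normal (9.96% of all rows) and 1 of 17 between acupuncture and normal (13.6% of all rows). At the level of genes, 1 of 5 had CPM ranges apart between acupuncture and HIBD model (2.27% of all genes). It was 0 of 5 between HIBD model and normal (11.5% of all genes) and 0 of 5 between acupuncture and normal (17.6% of all genes). In FPKM, every acupuncture library was below every normal library for Ntrk2, Igf1r and Igf1, where 22.0% of all genes had ranges apart. Acupuncture libraries reached at most 145 FPKM for Ntrk2, 14.7 FPKM for Igf1r and 4.94 FPKM for Igf1. Normal libraries started at 149, 15.2 and 5.41 FPKM in that order. Bdnf and Creb1 overlapped on that scale.

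Ratios of receptor to ligand within a library do not depend on how libraries are scaled. The log2 ratio of Ntrk2 to Bdnf FPKM was 4.01, 3.57, 3.69 and 3.60 in acupuncture replicates 5, 22, 35 and 55. HIBD model replicates 2, 8, 16 and 18 had 4.53, 4.32, 3.70 and 4.42. In normal replicates 8, 10, 11 and 13 it was 3.74, 4.04, 3.37 and 4.30. The HIBD model libraries other than replicate 16 were above all acupuncture and normal libraries, and HIBD model replicate 16 lay among the acupuncture libraries. Acupuncture minus HIBD model was -0.53 (two-sided exact permutation p = 0.0571, 0.286 when adjusted over the 6 tests of ratios). HIBD model minus normal was 0.38 (exact permutation p = 0.229, or 0.343 adjusted), and acupuncture minus normal was -0.15 (exact permutation p = 0.543, or 0.543 adjusted). The log2 ratio of Igf1r to Igf1 was 1.80, 1.62, 1.13 and 1.84 in acupuncture replicates 5, 22, 35 and 55. HIBD model replicates 2, 8, 16 and 18 had 0.52, 1.53, 1.39 and 0.49, and normal replicates 8, 10, 11 and 13 had 1.52, 1.40, 1.49 and 1.55. It was lowest in the 2 HIBD model libraries with high Igf1, and the normal libraries were close together. Acupuncture minus HIBD model was 0.62 (exact permutation p = 0.114, or 0.286 adjusted), HIBD model minus normal was -0.51 (exact permutation p = 0.143, or 0.286 adjusted) and acupuncture minus normal was 0.11 (exact permutation p = 0.543, or 0.543 adjusted).

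The gene most like each of the 5 was the one with the highest Pearson's r of log2 CPM over the 12 libraries, among 14067 other genes with an Ensembl identifier and a mean log2 CPM of at least 0. For Igf1 it was ENSRNOG00000020410 (r = 0.98, Spearman's rho = 0.88), which had 7.44 and 14.4 FPKM in HIBD model replicates 2 and 18 and 0.565 to 1.89 FPKM in the other 10 libraries (r = 0.88 and rho = 0.79 without those 2 libraries). For Bdnf it was ENSRNOG00000013519 (r = 0.94, rho = 0.90) and for Ntrk2 ENSRNOG00000047581 (r = 0.94, rho = 0.90). For Igf1r it was ENSRNOG00000028896 (r = 0.94, rho = 0.85) and for Creb1 ENSRNOG00000006228 (r = 0.89, rho = 0.91). Without HIBD model replicates 2 and 18, r was 0.93 for Bdnf, 0.85 for Ntrk2, 0.94 for Igf1r and 0.90 for Creb1. Genes with an r of at least 0.9 numbered 58 for Igf1, 12 for Bdnf, 10 for Ntrk2, 8 for Igf1r and 0 for Creb1. The values share libraries and their scaling, the highest of so many coefficients is high by its choice, and they are given as a description.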

How the data were processed

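Per the labels' protocols, Trizol was used for extraction and a NEBNext Ultra kit for library construction. HTSeq 0.6.0 and Rnor_6.0 are named, with no role, in the submitters' processing notes. For the aligner, the assembler and strand use, nothing is stated in these sources. The authors deposited estimated counts in 78025 transcript rows and, per library, FPKM of the same rows labelled by gene identifier. The FPKM unit was read from the values. Both were joined by row order: each estimated count is the FPKM times a row and a library factor (median deviation 0.00114% over 12003 rows, 18.1% with rows shuffled). All per-sample columns were used. None of 32883 Ensembl identifiers matched the reference table (GRCr8), so the fixed lists of pathway genes and cell type markers were not used.

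Estimated counts were summed per gene and tested with edgeR 4.0.16 (R 4.3.3; quasi-likelihood, TMM, filterByExpr), all 12 libraries in 1 fit. P-values were adjusted by Benjamini-Hochberg over 27885 genes or 53666 rows. The 95% intervals use the total degrees of freedom of the fit, and standard errors come from the F statistic. Shares and ratios were compared by exact permutation over 70 assignments. Alternatives used DESeq2 1.42.0, limma 3.58.1 (voom, and trend on log2(FPKM + 1) and log2(FPKM + 0.1)), RLE, other filters, Ensembl features only and omitted libraries. The test was tested on simulated data. Those counts were drawn gene by gene, without outlying libraries, and no result here rests on them. The rule for names took all 5 genes, every Ntrk2 row and the gene most like each. Members, lists and tests were chosen with earlier results of these data known. Whether replicates are separate animals is not stated, and no depth in reads is known.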

Additional observations from a re-analysis of the deposited data

How the results depend on the processing

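No paired analysis was made, because the labels state no pairing of libraries between groups. In every alternative run, 0 of the 5 genes, 0 of the 3 Ntrk2 rows, 0 of the shares and 0 of the ratios passed an adjusted p of 0.05, in each comparison. For shares and ratios this says little. The smallest exact permutation p possible was 0.0286, and a single result at that value cannot pass after adjustment. Over 23 alternatives a gene, the lowest adjusted p was 0.0800, for Bdnf between HIBD model and normal with limma on log2(FPKM + 0.1). Over all genes, limma on log2(FPKM + 0.1) called 1387 between HIBD model and normal and 1739 between acupuncture and normal, and edgeR on only the 2 groups compared called 0 and 807, against 27 and 23. Only Ensembl genes in the fit, and the joint omission of HIBD model replicate 18 and normal replicate 10, were chosen after seeing the data. Bdnf, Igf1 and the 2 rows ENSRNOT00000080190 and TCONS_00313483 kept their direction in every alternative run. No run left out HIBD model replicates 2 and 18 together, so the direction of Igf1 and TCONS_00313483 without both was not tested. HIBD model replicates 8 and 16 had 21.2 and 20.1 CPM of Igf1. Acupuncture libraries had 19.6 to 24.5 CPM and normal libraries 23.9 to 31.7 CPM. Of 714 single values, 32 turned their sign, none of them past the threshold. With only Ensembl transcripts, the log2 fold change of Ntrk2 between HIBD model and normal was 0.023 and that of Creb1 between acupuncture and normal 0.046; with only Ensembl genes these were 0.012 and 0.029. Without HIBD model replicate 18 and normal replicate 10 together, Igf1r between acupuncture and HIBD model was 0.06 and Ntrk2 between HIBD model and normal 0.0022. On log2(FPKM + 1) and log2(FPKM + 0.1), Creb1 between HIBD model and normal was -0.013 and -0.015, and Ntrk2 between acupuncture and normal -0.13 on both. ENSRNOT00000082611 between acupuncture and normal was -0.0029 without a filter and -0.0014 with only those 2 groups; its share difference there was -0.16 percentage points as a share of estimated counts. With single replicates left out, log2 fold changes ranged from -0.095 to 0.076 for Igf1r and from -0.21 to 0.104 for ENSRNOT00000090914 (acupuncture against HIBD model), from -0.084 to -0.0046 for Ntrk2 and from -0.070 to 0.023 for ENSRNOT00000042145 (HIBD model against normal), and from -0.145 to 0.027 for Creb1 and from -0.053 to 0.077 for ENSRNOT00000082611 (acupuncture against normal). The share difference of ENSRNOT00000042145 between acupuncture and HIBD model ranged from -0.059 to 6.05 percentage points, and the log2 ratio of Ntrk2 to Bdnf between acupuncture and normal from -0.31 to 0.0013. ENSRNOT00000080190 between HIBD model and normal passed without normal replicate 10 alone (edgeR adjusted p = 0.0183). That omission also raised the edgeR calls over all genes in this comparison from 27 to 3032. The cause of these turns was not tested, beyond the smaller sets of samples and features. What 1 unit is worth in reads is unknown, so low rows carry an unknown counting error, and 4 libraries a group leave intervals of the width given for each gene.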
